A study of Capra hircus with 2 samples.

Results

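miR-21 was examined in the small RNA of the goat endometrium through every known miRNA name numbered 21, whatever its species prefix, arm or end annotation. The rule found 2 of the 587 known miRNA names, each listed once. Endometrium of 24-month-old multiparous Xinong Saanen dairy goats, synchronized in estrus, was collected after natural mating, on day 5 of gestation for the pre-receptive phase (P library) and on day 15 for the receptive phase (R library). By the paper's methods, RNA from 9 goats per phase was mixed into 3 pools, and sequencing was done 3 times. The tables used here hold a single column per phase, called a library here, so the spread between goats, pools or runs cannot be seen and no difference has a replicate check. The reads listed under miRNA names numbered 4050349 in P and 1912362 in R, which was 75.2% of the P clean reads and 45.2% of those of R. All tests compare these 2 libraries and not the phases.

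A miRNA precursor is a hairpin whose stem yields a mature miRNA from its 5p arm and another from its 3p arm. Bases 2 to 8 of the mature miRNA, the seed, pair with target mRNAs. miR-21-5p is among the most widely expressed miRNAs of mammalian tissues, and its known targets include the tumour suppressor PDCD4. Transcription of its gene responds to STAT3, AP-1 and NF-kB, its maturation is promoted by TGF-beta signalling through SMAD proteins, and in the mouse uterus it is known from the stroma at implantation sites, where it represses RECK, an inhibitor of matrix metalloproteinases.

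The sequences are given because the 5p entry has an undetermined base, N, inside its seed. Each listed sequence is followed by the database entry that represents it, 5′ to 3′ with T for U, and capitals mark the seed. The prefix of a name gives the species of the entry, such as hsa for human, and L, R and ss mark changed ends and substituted bases.
hsa-miR-21-5p_R+2_1ss4CN: tAGNTTATcagactgatgttgacc
hsa-miR-21-5p: tAGCTTATcagactgatgttga
aja-miR-21_R+2: cAACAGCAgtcgatgggctgtcct
aja-miR-21: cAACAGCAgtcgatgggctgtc

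Both listed sequences were 24 nt long and ran 2 bases past the 3′ end of a database entry of 22 nt (R+2). The 5p sequence differed from human miR-21-5p by C4N, counted from 1 at the 5′ end of the entry. The other sequence had no base difference from the miR-21 entry of the Mexican fruit bat within the length of that entry. Its name carries no arm, and it is called miR-21-3p here because it is the 3p arm of the miR-21 hairpin. The header of the known miRNA table describes a listed sequence as 1 read chosen by its mapping score within a cluster. Whether each read counted under the 5p name had N at that base, and whether other reads of the 5p arm were counted elsewhere or filtered, was therefore not tested. Each level, rank, share and arm ratio given for miR-21-5p is that of the listed name and may not be that of the whole arm. In the RefSeq annotation of goat assembly ARS1.2, the nearest protein-coding neighbours of MIR21 are VMP1 on one side and TUBD1 on the other. The authors' conservation table held a miR-21 precursor for 5 of its 23 species, which were human, rat, platypus, gray short-tailed opossum and Mexican fruit bat.

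miR-21-5p, the main arm, was higher in the R library. Its normalized expression (NE) was 2.33 in the P library and 22.4 in the R library. NE is taken here as the number of reads of an entry times a constant of the library, and a repeated name keeps the NE of a single entry. The constant was read off as the most common NE above 0, so that 1 read was worth 1.16 NE in P and 0.860 NE in R. This departs from the paper, whose formula of reads per 1000000 clean reads would make 1 read worth 0.186 in P and 0.236 in R. With that formula 3.98% of the known names above 0 in P and 2.26% in R come out at whole reads, against 87.5% and 85.2% with the constants used here. These levels came from 2 reads in P and 26 reads in R. The 95% exact Poisson interval of the level was 0.282 to 8.40 NE for P and 14.6 to 32.8 NE for R, so the intervals did not overlap. All intervals cover counting error only and take each read as independent. Reads copied by PCR and carrying no molecular identifier are not independent molecules, so the intervals may be too narrow.

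The NE of miR-21-5p in R was 9.61 times that in P (95% exact interval 2.41 to 83.6), or 3.26 on the log2 scale (1.27 to 6.38). Fisher's exact test (two-sided) of its reads, set against all other clean reads, gave P = 6.78e-08. Benjamini-Hochberg adjustment of this exact test over 564 names gave P = 2.48e-07. Fisher's exact test expects an equal share of clean reads, whereas the ratio and interval above are on the NE scale. An exact binomial test on the NE scale gave P = 6.31e-05. A name was called when P in Fisher's exact test was under 0.05 and the log2 ratio of NE was beyond 1 in either direction. Both libraries also had to have an NE above 0, with 1 of them reaching 1. A call thus joins a P by clean reads to a ratio by NE. Of the 2 miR-21 names, 1 was called higher in the R library, where 18.3% of the 564 tested names (103) were called higher and 7.09% (40) lower. By the size of the ratio alone, 22.9% of the tested names had a log2 ratio above 1. A larger log2 ratio than that of miR-21-5p was found for 14 of the 564 names. The 2 reads in the P library set how well the ratio is known, and 34 of the 103 names called higher had at most 3 reads there. In bulk tissue, fewer cells of a type and less RNA per cell cannot be told apart.

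**Figure D1:**
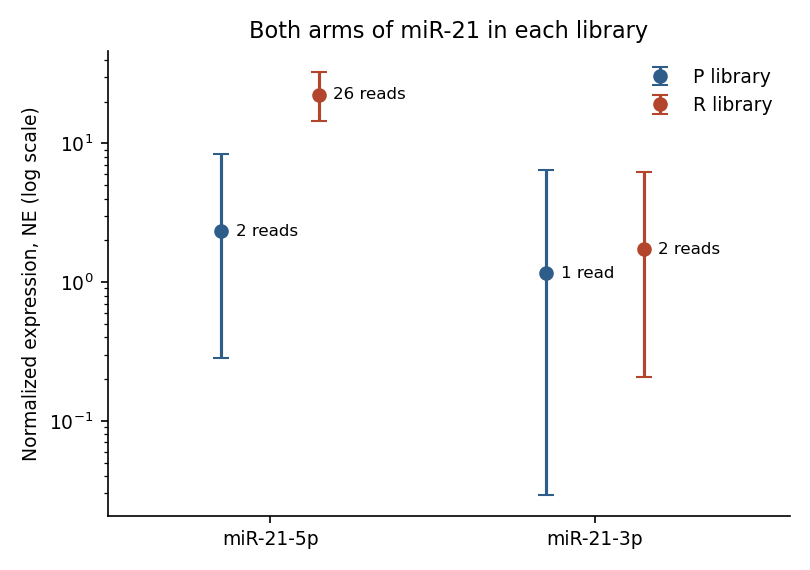
Normalized expression (NE, log scale) of miR-21-5p and miR-21-3p in the P library and the R library, with 95% exact Poisson intervals of the reads as bars. The 5p intervals of the libraries lie apart, at 0.282 to 8.40 NE in P and 14.6 to 32.8 NE in R, and the 3p intervals overlap.

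miR-21-3p, the passenger arm, was close to the limit of detection in both libraries. Its NE was 1.16 in P, from 1 read, and 1.72 in R, from 2 reads. The exact Poisson intervals were 0.208 to 6.21 NE in R and 0.0294 to 6.48 NE in P, and they overlapped over most of their length. No fold is given, because neither library held more than 3 reads. The 95% exact interval of its log2 ratio ran from -3.70 to 6.45, and Fisher's exact test gave P = 0.586. With 3 reads in all, the smallest P this exact test could give was 0.0852. A difference in miR-21-3p was thus not detectable at this depth.

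The ratio of the arms asks whether the reads of the listed 5p and 3p names stood in the same proportion in both libraries. In the R library the 5p arm held 26 of 28 reads, a share of 92.9% (95% exact interval 76.5% to 99.1%) and a ratio of 13.0 to 1 (3.25 to 113). In the P library it held 2 of 3 reads, a share of 66.7% (9.43% to 99.2%). The interval of the P library contained that of the R library. Fisher's exact test (two-sided) of the 5p and 3p reads between the libraries gave an odds ratio of 5.85 (0.0737 to 174) with P = 0.271. Both arms together had 3 reads in P and 28 in R, for a log2 ratio of 2.79 (1.09 to 5.15).

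The rank of miR-21-5p among all names was higher in the R library. miR-21-5p ranked 269 among the 1002 known and candidate names above 0 in the R library, and 1 other name had the same NE. Its counting interval in R covered ranks 243 to 303, and 59 other names lay within it. Ranks follow the NE of a single entry, and ranks by summed reads were not computed. Some names ranked below miR-21-5p held more reads in R once repeated entries were summed, such as hsa-miR-491-3p with 31 against 26. In the P library miR-21-5p ranked 430 of 782 names, tied with 85 others. The median name above 0 had 4.07 NE in P and 1.72 NE in R, and the interval of miR-21-5p lay above the median in R. Among known names alone the median in R was 18.5 NE, within that interval. In P its level was below the median, but its interval contained the median. It ran from rank 329 to below the last name, with 453 other names within it, so its place among all names is hardly known. The median of the known names in P was 19.8 NE, above that whole interval. Among known names alone, 74.5% of the 502 names in P and 47.9% of the 532 names in R had a higher NE.

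miR-21-3p ranked 495 in the R library, tied with 158 other names, and 525 in the P library, tied with 232 other names. Its NE in R equalled the median of the names above 0 there. Next above miR-21-5p in the R library stood bta-miR-199a-3p_R-1_2ss20TC21TA (23.2 NE) and oar-miR-299-5p_R-2 (23.6 NE). Next below were bta-miR-545-3p_L-1R+1, cgr-miR-326_R+1 and hsa-miR-26a-2-3p, tied at 21.5 NE. PC-3p-22067_41, a predicted candidate, had the same NE as miR-21-5p. By NE these neighbours lay within the counting interval of miR-21-5p in R. In P their NE was between 10.5 and 44.2, above the upper limit of 8.40 NE of miR-21-5p. Not all were near it by reads summed over repeated entries. In R oar-miR-299-5p_R-2 had 55 reads, and bta-miR-545-3p_L-1R+1 and hsa-miR-26a-2-3p had 50 each. These lay above 38.1 reads, the upper limit of miR-21-5p.

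**Figure D2:**
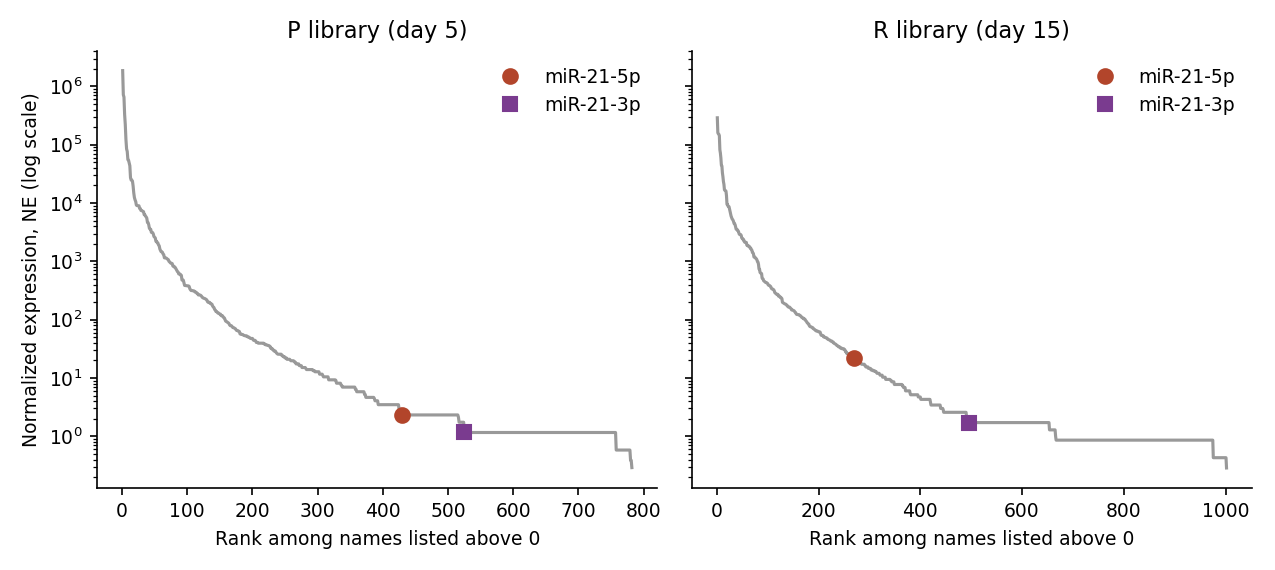
NE (log scale) of every name above 0 against its rank, in the P library and the R library, with the arms of miR-21 marked. miR-21-5p stands at rank 269 of 1002 in R and 430 of 782 in P, and miR-21-3p lies on the steps of names with 1 or 2 reads.

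As a share of all reads listed under miRNA names, miR-21-5p made up 0.494 reads per 1000000 in P (95% exact interval 0.0598 to 1.78) and 13.6 in R (8.88 to 19.9). On the same scale the share of miR-21-3p was 0.247 in P (0.00625 to 1.38) and 1.05 in R (0.127 to 3.78). The intervals of the 5p arm did not overlap and those of the 3p arm did. Per 1000000 clean reads, miR-21-5p held 0.371 reads in P and 6.14 in R.

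The scale of NE differs from a scale of reads per clean or listed read by a constant that applies to every name alike. The log2 ratio of each name rose by 0.78 when reads were taken per clean read and by 1.52 when taken per listed read. Over the tested names, the median log2 ratio was -0.07 on the NE scale, 0.71 by clean reads and 1.45 by listed reads. The log2 ratio of miR-21-5p was 4.05 and 4.78 on these scales, so its distance from the median was the same on all of them. Of all calls, 72.0% were higher in R by NE, 89.1% by clean reads and 95.1% by listed reads.

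**Figure D3:**
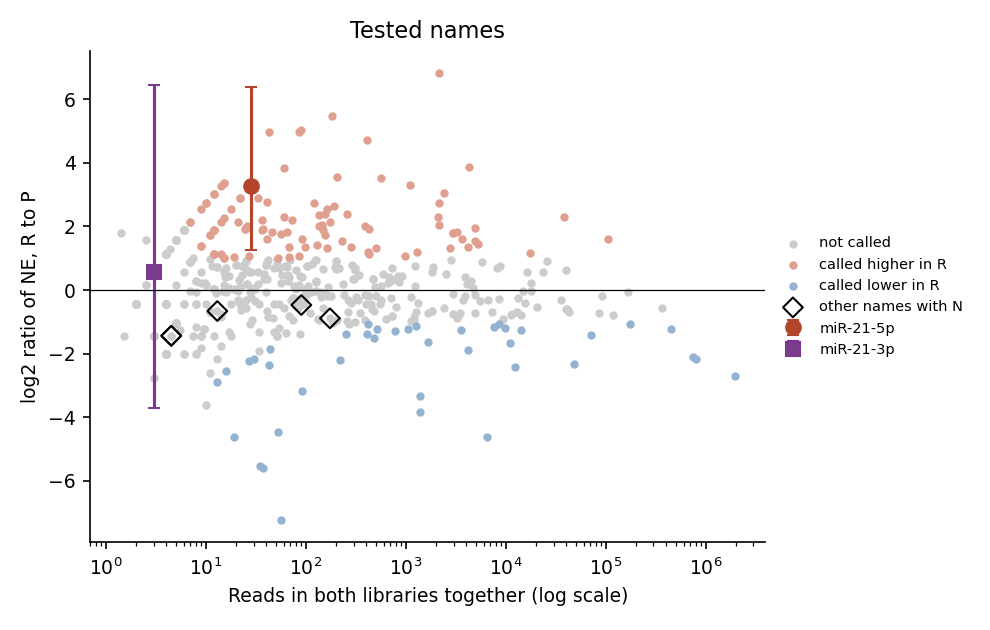
log2 ratio of NE (R to P) against the reads in both libraries together (log scale) for the 564 tested names, with 95% exact intervals for the arms of miR-21 and diamonds for the other names with N. miR-21-5p lies at 3.26 with an interval above 0, miR-21-3p has an interval from -3.70 to 6.45, and the 5 other tested names with N lie below 0 on this scale.

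The N in the 5p sequence lies in the seed, so the other names with an undetermined base were compared with it. In all 10 known names, with 8 distinct sequences, carried N, and 0 candidate names did. N stood at position 4 in 7 of the 8 sequences and at position 3 in the other one. The sequences of miR-26a and miR-140 are shown with their N-free counterparts, since these were the 2 sequences with a counterpart among the rows used here that had no other difference where they overlap.
oar-miR-26a_R+1_1ss4AN: tTCNAGTAatccaggataggctt
oar-miR-26a: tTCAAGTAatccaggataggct
sha-miR-140_R+2_1ss4AN: aCCNCAGGgtagaaccacggact
hsa-miR-140-3p_L-1R+2: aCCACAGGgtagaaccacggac

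The other 9 names with N held 162 reads in P and 129 in R, against 2 and 26 for miR-21-5p. Relative to these names, miR-21-5p was higher in R with an odds ratio of 16.2 (95% exact interval 3.94 to 143.6; Fisher's exact test, two-sided, P = 3.52e-07). This comparison does not depend on the scaling. Most of these 162 and 129 reads belonged to miR-26a, an abundant miRNA known as a tumour suppressor. Without its names 16 reads in P and 11 in R were left, and the odds ratio was 17.8 (3.34 to 185; same exact test, P = 4.00e-05). The 9 names together had a log2 ratio of -0.76 (-1.11 to -0.42) by NE, but 0.02 by clean reads and 0.75 by listed reads, so their own direction turned with the scaling. Of these 9 names 5 were tested, and 0 were called in either direction, where 18.3% of all tested names were called higher and 7.09% lower, so 0 of so few says little.

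miR-21-5p accounted for 1.22% of the reads of names with N in P and for 16.8% of those in R. The miR-26a sequence with N, listed under a sheep and a human name, had 170 NE in P and 101 NE in R by its reads, and oar-miR-26a had 284262 reads in P and 166124 in R. With the reads of a name taken as reads of its listed sequence, the form with N was 0.0513% of their sum in P (95% exact interval 0.0433% to 0.0604%) and 0.0710% in R (0.0588% to 0.0850%), and this share was higher in R (Fisher's exact test, two-sided, P = 0.0106). For miR-140, known from cartilage, the share was 0.0937% in P (0.0344% to 0.204%) and 0.0580% in R (0.0120% to 0.169%), a difference not detectable at this depth (same exact test, P = 0.740). With differences beyond 16 bases in a row allowed, an alternative added once the values were known, miR-151a-3p had a counterpart too, and its share was 0.0882% in P (0.0355% to 0.182%) and 0.0962% in R (0.0353% to 0.209%; same exact test, P = 1.00). A name of miR-29a with N, with 0 reads in P and 1 in R, also matched a counterpart, and miR-21-5p still had none. For miR-21-5p the share could not be computed, since 0 names among the rows used here began with the first 12 bases of the human entry. The 5p arm without N was not analysed here.

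**Figure D4:**
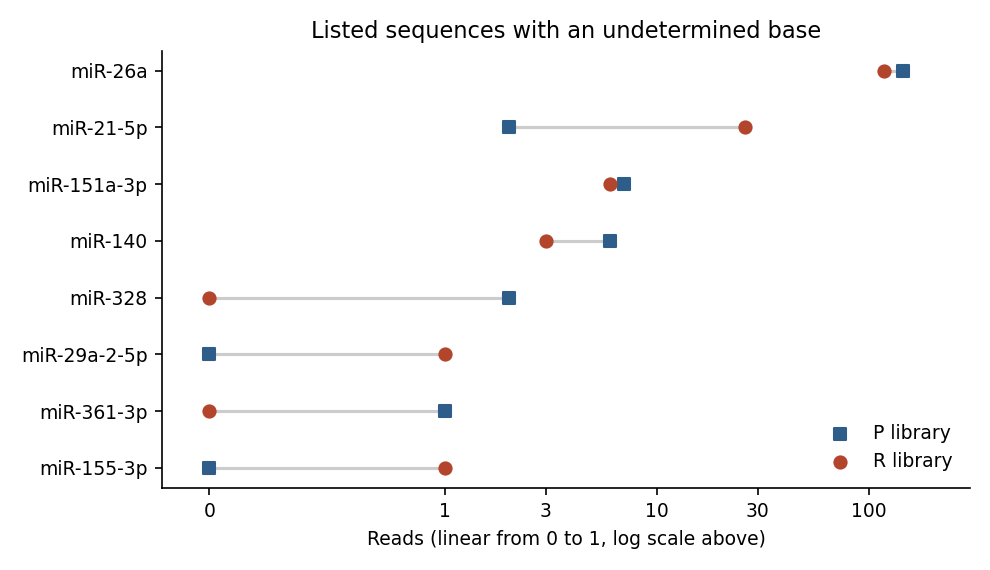
Reads in the P library (squares) and the R library (circles) of the 8 listed sequences with an undetermined base, on an axis that is linear from 0 to 1 and logarithmic above. miR-21-5p has 2 reads in P and 26 in R, while miR-26a has 118 in R and more in P, and the other sequences have at most 7 in either library.

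With N read as any base, 1 other name shared the seed of miR-21-5p, and 0 names shared that of miR-21-3p. The former was a predicted candidate with 0 reads in P and 1 in R, and its seed was not that of the human entry.
PC-3p-380217_1: cAGATTATgttattttttgata

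The tested names with 10 to 100 reads in R whose log2 ratio was nearest to that of miR-21-5p were 6 names called higher, 1 more than planned because the last 2 were tied. hsa-miR-141-5p_1ss11TC, an arm of a miR-200 family hairpin of epithelium, had the same log2 ratio of 3.26 (0.53 to 8.67) from 1 read in P and 13 in R. For PC-3p-36269_24, with 2 reads in P and 28 in R, it was 3.37 (1.38 to 6.49). The same value of 3.37 (0.66 to 8.77) was found for oar-miR-154b-3p_L-1 and bta-miR-2284d_L-1R+1_1ss10GA, each with 1 read in P and 14 in R. For hsa-miR-628-3p_L+1 and PC-5p-91245_7, each with 1 and 11 reads, the log2 ratio was 3.02 (0.24 to 8.45). All 6 had 1 or 2 reads in P, as few as miR-21-5p, and likeness here is that of a single ratio between 2 libraries.

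Most tested names on the list of NF-kB, STAT3 or AP-1 signalling were not called, as was so for 421 of all 564 tested names. Of 11 miRNAs known from NF-kB, STAT3 or AP-1 signalling, 9 were found with 16 names, and miR-146b and miR-221 were not analysed here. Of 13 tested names, 1 was called higher in R, 2 were called lower and 10 were not called, beside 18.3% higher and 7.09% lower over all tested names. Nothing particular to this list is read from so few calls. Their median log2 ratio was -0.68, against -0.07 over all tested names, and it was 0.10 by clean reads. oar-miR-181a, a regulator of lymphocyte signalling and the most abundant of them in R, was lower, with 20920 NE in R and 55420 in P (log2 ratio -1.41, 95% exact interval -1.43 to -1.38). mdo-miR-181b-5p was lower too (3170 NE in R and 7214 in P). The call of both was lost by clean reads, where 4 names of the list were called higher and 0 lower. hsa-miR-9-3p_L-1R+1, of a miRNA known from neural tissue, was higher (63.6 NE in R and 14.5 in P, log2 ratio 2.13, 1.51 to 2.80). hsa-miR-155-5p, which is induced by NF-kB in immune cells, had 1348 NE in R and 2211 in P and was not called.

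For miRNAs linked to TGF-beta and fibrosis the counts depended on the scaling. Of 12 miRNAs, 11 were found with 24 names, and miR-200b was not analysed here. Of 21 tested names, 6 were called higher, 1 lower and 14 were not called, with a median log2 ratio of 0.05, beside 18.3% higher and 7.09% lower of all names. By clean reads 9 were called higher and 0 lower (median 0.84), and by listed reads 14 and 0 (median 1.57), where 180 and 233 of all 564 names were called higher. The 6 called higher all belonged to the miR-200 family, which represses the ZEB factors and is also on the list of epithelium. Among them hsa-miR-141-3p_R-1 had 28337 NE in R and 5791 in P (log2 ratio 2.29, 2.25 to 2.33). hsa-miR-192-5p was called lower, with 2454 NE in R and 5510 in P (log2 ratio -1.17), a call that was lost by clean reads. oar-miR-199a-3p, known from stromal fibroblasts, was the most abundant, with 82015 NE in R and 84822 in P. Its log2 ratio was -0.05 (-0.06 to -0.03) by NE and above 0 by clean or listed reads.

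Among the marker lists for cell types in the tissue, those of epithelium and muscle had most of their tested names called by NE. The lists of blood cells and endothelium did not. Of 13 tested names from the epithelial list, 11 were called higher in R and 0 lower, with a median log2 ratio of 3.04, beside 18.3% higher and 7.09% lower and a median of -0.07 over all tested names. The names of this list summed to 38573 NE in R and 6977 in P, and hsa-miR-141-3p_R-1 was the most abundant. Of its 16 names 0 were at 0 in R and 3 in P, and miR-200b was not analysed here. With ggo-miR-203b counted too, a name with a letter after a listed number (a count added once the values were known), 12 of 14 tested names were called higher. bta-miR-182, of an epithelial miRNA cluster, had 3519 NE in R and 242 in P. Both direction and calls of this list were the same by clean and by listed reads, with 11 names higher and 0 lower. The part of epithelial RNA in the miR-21-5p difference was not tested.

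Muscle names matched by their number as written were 8, all tested and called lower in R, with a median log2 ratio of -3.65, where 7.09% of all tested names were called lower. With names that carry a further letter counted too, also added once the values were known, 8 of 11 tested names were called lower and 3 were not called, and the median was -2.42. Of these, hsa-miR-499a-5p, of a miRNA of striated muscle, had 63.6 NE in R and 130 in P (log2 ratio -1.03, 95% exact interval -1.48 to -0.60). Its interval, on the NE scale, lay below 0. Fisher's exact test, which compares shares of clean reads, gave P = 0.268, so this name was not called. hsa-miR-499a-3p_R+1 and mmu-miR-145b_R-3_1ss18GT had at most 3 reads in either library. The 8 names summed to 292575 NE in R and 1883188 in P, led by aja-miR-143_1ss22GT of smooth muscle (289634 and 1866274 NE), and no name was at 0 in either library. miR-133b and miR-206 were not analysed here. By clean reads 6 of the 8 and by listed reads 5 of the 8 were still called lower, beside 22 and 12 of all 564 names. The part of muscle RNA was not tested either.

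Blood cell names were tested for 8 of 9, of which 2, the arms of miR-142, were called higher and 0 lower, with a median log2 ratio of 0.35, beside 18.3% called higher over all tested names. With the NE of a single entry for each name, they summed to 12220 NE in R and 12134 in P. The miR-144 names had pairwise equal values, and some of their counts were not whole, such as 409.5 reads in P for each miR-144-5p name. Whether the reads of 1 sequence were divided between such names was not tested, so it is not known whether the sums hold them repeatedly. Both arms of miR-142 were listed repeatedly, so these sums leave out part of their reads. Over all entries, cgr-miR-142-5p_L-2R+1 reached 13233 reads for R against 4340 for P, and cgr-miR-142-3p_L+1R+1 reached 985 against 319. The near equality of the sums may therefore not hold for summed reads. The most abundant in R was cgr-miR-142-5p_L-2R+1, of a miRNA common to leukocytes, with 5689 NE in R and 2524 in P. The erythroid cgr-miR-486-5p had 5052 NE in R and 8073 in P (log2 ratio -0.68, 95% exact interval -0.73 to -0.63), and the miR-144-5p names had 273 NE in R and 476 in P (-0.80, -1.01 to -0.58). The miR-144-3p names, from the other arm, had 253 NE in R and 198.9 in P (0.35, 0.07 to 0.63). None of these erythroid names was called by NE, but the miR-144-3p names were called higher by clean and by listed reads. Of the 2 negative ratios, the rise of 0.78 by clean reads takes only the first above 0, and the rise of 1.52 by listed reads takes both above 0. ssc-miR-451_L+3R-1 had 1 read in P and 2 in R, and the myeloid oan-miR-223-3p_1ss22AT had 0 in P and 1 in R. Of the 9 names 0 were at 0 in R and 1 in P, and miR-150 was not analysed here. All 4 endothelial names, of miR-126, were tested and not called, with 32841 NE in R and 21287 in P in sum, led by hsa-miR-126-5p (23369 and 14955 NE), and 0 names at 0. A further name of miR-126b had 1 read in each library. By clean reads and likewise by listed reads, 4 blood cell names and 3 endothelial names were called higher. The part of blood cells and endothelium in the miR-21-5p difference was not tested.

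Length and end extension, which both miR-21 names share, were given for the remaining names as a description. Of 25 tested known names of 24 nt besides miR-21, 4 were called higher and 2 lower, with a median log2 ratio of 0.31. Of 7 tested candidate names of 24 nt, 1 was called higher and 0 lower, with a median log2 ratio of -0.70. Of 36 tested known names with R+2 besides miR-21, 6 were called higher and 1 lower, with a median log2 ratio of -0.44. The shares called higher among these known names were near the 18.3% of all tested names. By clean reads the calls higher and lower were 11 and 1 for the known names of 24 nt and 9 and 0 for those with R+2, and by listed reads 12 and 0 and 13 and 0, where all names had 180 and 22 and 233 and 12. The medians of the candidates of 24 nt and of the names with R+2 were above 0 by clean reads (0.08 and 0.35).

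The authors' table of predicted targets was searched for both names. It held 87779 pairs of a miRNA and a gene, and 0 pairs of a miR-21 name were among the rows used here. Targets of miR-21 were therefore not analysed here.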

How the data were processed

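Small RNA of the pre-receptive (P, day 5) and receptive (R, day 15) goat endometrium was measured in 1 library each. The authors removed adapters, junk reads and other RNA families, matched reads to miRBase and the genome, and deposited a normalized signal (NE) per miRNA and library. Their table of differential expression also holds a fold change, its log2 and a P-value, which were not used. The candidate table carries the library labels in reverse: of 70 candidates found in both tables, 70 had equal values with the labels exchanged and 0 as labelled, so the labels were exchanged.

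NE divided by what 1 read is worth gave the reads, and 85.2% of the known names in R and 87.5% in P came out whole within 0.02 reads. A name listed repeatedly was counted once, with its reads summed over its entries. Its NE, used for levels, ranks and list sums, stayed that of a single entry. Reads were rounded for Fisher's exact test (two-sided) against the clean reads. Intervals are exact (Clopper-Pearson, or Poisson for single levels). A count of 0 allows 3 reads, or 2.58 NE in R and 3.49 NE in P. Names in the text are every name numbered 21, names with N and their counterparts (equal over an overlap of at least 16 bases, or, as an alternative added later, over 16 bases in a row), names of the same seed, the 5 nearest log2 ratios with ties, rank neighbours, and the most abundant or called members of the lists. The list members hsa-miR-155-5p, cgr-miR-486-5p, those of miR-144, ssc-miR-451_L+3R-1 and oan-miR-223-3p_1ss22AT were named after their values were seen, and names with a letter after a listed number were an alternative added then. The members and lists were chosen with earlier results of these data known. The calls were tested on simulated data. The software was scipy 1.17.1, numpy 2.4.6 and pandas 2.3.3 under Python 3.11.15, with figures by matplotlib 3.10.9.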

Additional observations from a re-analysis of the deposited data

How the results depend on the processing

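miR-21-5p kept its direction and its call under all 7 alternatives (scaling to listed or clean reads or to a median of 0, 1 NE added, exact binomial test on the NE scale, negative binomial test with an assumed coefficient of variation of 0.4, adjusted P), with log2 ratios from 2.81 to 4.78. Its P ranged from 6.78e-08 in Fisher's exact test to 0.0130 in the negative binomial test, which is also exact here. The rescalings each raised its log2 ratio and, like the 1 NE added, left the P of Fisher's exact test unchanged. A rescaling could thus not have lost the call. miR-21-3p was not called under any of the 7, which says nothing of how stable its result is. With its 3 reads the smallest possible P was 0.0852 in Fisher's exact test and 0.0768 in the exact binomial test, so neither could give a call. The number of names called higher and lower in R, 103 and 40, became 180 and 22 by clean reads, 233 and 12 by listed reads, and 42 and 24 with the negative binomial test. With the binomial test, exact on the scale of NE, they were 82 and 55. The changes by clean and listed reads follow from the shift of every ratio. The negative binomial test differs from Fisher's exact test in both its expectation, which follows NE, and its spread. The binomial test shares that expectation without the added spread. The step from 103 and 40 to 82 and 55 thus goes with the expectation, and that to 42 and 24 with the added spread. The share of miR-21-5p in R, 13.6 per 1000000 listed reads, was 6.14 per 1000000 clean reads because of the larger total. The share of miR-21-3p in R fell in the same proportion, from 1.05 to 0.472, but within its counting interval. Of 72 recomputed values these 7 are counted as moved. A count was so when it changed over 1.5 times, a share, rank or arm ratio when it left its counting interval, and a log2 ratio or odds ratio only when its direction or test changed, however large the shift. The other 65 include the counts of each list with lettered names added and the shares of N with looser counterparts, both chosen after seeing the data. The counts of each list by clean and listed reads are not among the 72. Of these, the calls higher changed over 1.5 times for several lists and stayed at 11 for epithelium. The log2 ratio of the other names with N, whose direction turned with the scaling, is not among the 72 either. The N-free counterparts all began at the same base, so that requirement changed no value. No paired analysis was possible because each group is 1 library. Depth limits the 3p arm, with 3 reads in all, and the size of the 5p ratio, which rests on 2 reads in P.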
